A study of Mus musculus with 6 samples.

Results

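The genes described here are Nfs1, Iscu, Glrx5, Isca1, Isca2 and Iba57, which build iron-sulphur clusters in mitochondria, and Tfrc, Fth1 and Ftl1, which bring iron into the cell or store it. They were taken by symbol from the deposited table, and all 9 had a row among its 13185 gene rows. The list was chosen by pathway and with the log2 fold changes of this same comparison in view. Iba57 was already known to be among the largest falls. The values of the 9 genes are therefore given as a description. Where a threshold on adjusted p is applied to them, it describes the fit over all genes and is not a test of the list. The data came from a mouse leukaemia of T cells (T-ALL) with Notch1 as its driver, read with QuantSeq, a method that sequences the polyadenylated ends of mRNAs. In 3 libraries the cells had been exposed for 2 h to 25 nM panobinostat, an inhibitor of histone deacetylases. The other 3 libraries were from cells left untreated. Cells of all 6 libraries grew in the presence of 2.5 ug/mL of an antibody to CD3 bound to the plate, which engages the T cell receptor, and of 100 U/mL of the growth factor IL-2. Nothing in the labels tells whether replicate libraries were grown as separate cultures, so p-values measure only the spread between these libraries, which may be technical.

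Iron-sulphur clusters are small inorganic cofactors that carry electrons or hold substrates in enzymes of respiration, DNA replication and many other processes. In the mitochondrion the desulphurase Nfs1 supplies sulphur, the cluster forms on the scaffold Iscu, and the glutaredoxin Glrx5 passes it on. Isca1, Isca2 and Iba57 act late and are needed for the cubane-type clusters of enzymes such as lipoyl synthase. Iron enters through the transferrin receptor Tfrc, and the surplus is kept in ferritin, a shell of heavy (Fth1) and light (Ftl1) subunits. Iron regulatory proteins bind hairpins in the untranslated ends of these mRNAs, blocking translation from a hairpin at the 5′ end and protecting the mRNA from decay at the 3′ end.

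The hairpins, read from GENCODE M21 transcripts and written 5′ to 3′, are shown because they set the ferritin and transferrin receptor mRNAs apart from the other members. A search of annotated transcripts for a C, 5 paired bases, the loop CAGTG followed by A, C or T, and the matching 5 bases found a site in the 5′ end of Fth1 and Ftl1 and 4 sites in the 3′ end of Tfrc, and in no other member. The loop is in capitals.
Fth1 hairpin, chromosome 19: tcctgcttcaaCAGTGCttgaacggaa
Ftl1 hairpin, chromosome 7: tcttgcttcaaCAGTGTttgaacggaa
Tfrc hairpin 1, chromosome 16: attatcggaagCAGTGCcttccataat
Tfrc hairpin 2, chromosome 16: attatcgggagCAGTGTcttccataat
Tfrc hairpin 3, chromosome 16: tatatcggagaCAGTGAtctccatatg
Tfrc hairpin 4, chromosome 16: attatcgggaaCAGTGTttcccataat
The same pattern was found in the 5′ untranslated region of 21 of 10495 tested coding genes (0.2%) and in the 3′ region of 65 (0.619%).

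Promoter windows of 4 genes from RefSeq (build GRCm38.p6) are shown, each running from 250 bases before an annotated start to 50 bases after it. Iba57 had the largest fall of the 9 genes, Isca2 is a partner of its protein that rose, and the ferritin genes moved in opposite directions. They are written 5′ to 3′ on the gene's strand, and capitals mark matches, on either strand, to the 8 motifs searched.
Iba57 promoter, chr11:59163696-59163995, minus strand: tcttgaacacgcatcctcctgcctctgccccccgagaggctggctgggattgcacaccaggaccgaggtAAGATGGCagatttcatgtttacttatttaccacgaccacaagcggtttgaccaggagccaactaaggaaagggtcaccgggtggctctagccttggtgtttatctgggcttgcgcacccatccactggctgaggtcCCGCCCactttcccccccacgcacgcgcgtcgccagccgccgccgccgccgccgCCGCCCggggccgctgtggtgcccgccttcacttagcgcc
Isca2 promoter, chr12:84773020-84773319, plus strand: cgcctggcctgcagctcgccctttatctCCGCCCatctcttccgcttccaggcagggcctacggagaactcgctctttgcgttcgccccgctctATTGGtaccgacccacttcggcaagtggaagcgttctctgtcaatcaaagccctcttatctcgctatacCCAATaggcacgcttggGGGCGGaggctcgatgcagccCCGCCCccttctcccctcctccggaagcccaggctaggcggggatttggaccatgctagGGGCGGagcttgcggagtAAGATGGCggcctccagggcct
Fth1 promoter, chr19:9982396-9982695, plus strand: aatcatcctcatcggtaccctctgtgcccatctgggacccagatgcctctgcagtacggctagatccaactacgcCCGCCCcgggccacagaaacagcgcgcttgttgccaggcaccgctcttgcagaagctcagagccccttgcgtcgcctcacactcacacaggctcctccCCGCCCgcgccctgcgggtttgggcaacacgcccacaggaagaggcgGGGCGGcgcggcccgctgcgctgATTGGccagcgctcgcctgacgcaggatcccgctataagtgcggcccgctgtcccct
Ftl1 promoter, chr7:45459837-45460136, minus strand: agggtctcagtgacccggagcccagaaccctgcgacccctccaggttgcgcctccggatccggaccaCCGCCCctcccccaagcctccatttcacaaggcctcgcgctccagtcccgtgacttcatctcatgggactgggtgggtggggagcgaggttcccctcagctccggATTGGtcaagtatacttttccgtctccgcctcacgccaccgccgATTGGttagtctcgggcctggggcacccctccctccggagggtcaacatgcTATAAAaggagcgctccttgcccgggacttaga
The motifs were chosen after the values had been seen. AAGATGGC, the YY1 motif, stood in the Iba57 window, 181 bases before the start, and in the Isca2 window, at base 29 after it. It was present in 2.75% of all 32841 windows of this length, and in none of the other 8 windows of the members. The GC box motif, GGGCGG, found in 35.7% of all windows, was matched 2 times in Iba57, 4 times in Isca2, 3 times in Fth1 and 1 time in Ftl1. TATAAA, found in 13.6% of all windows, was matched in the Ftl1 window, at base 18 after the annotated start, and not in the Fth1 window shown. It was matched in another Fth1 window, around a different annotated start, so this contrast between the ferritin genes depends on the window. CCAAT, found in 37.4%, was matched 2 times in Isca2, 1 time in Fth1 and 2 times in Ftl1, and not in Iba57. The ETS motif CCGGAAGT (3.89% of all windows), the E box motif CACGTG (7.15%), the NRF1 motif GCATGCGC (2.71%) and the antioxidant response element core TGACNNNGC (12.4%) were not matched in these 4 windows. No entry for Iscu was used.

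The deposited values were read as log2 CPM (counts per 1000000 reads), a unit inferred from their sums. Taking each step between neighbouring low values as a single read, the libraries held an estimated 6010000 to 7740000 reads, so that 1 CPM stood for 6.01 to 7.74 reads. The values looked quantile normalized between libraries, so they cannot show a change in total mRNA. The T cell label was checked on 8 marker genes, all present, with Lck at 8.27 ± 0.10 log2 CPM in panobinostat and 9.09 ± 0.05 in untreated libraries (SD, n = 3). Of these T cell markers 6 (75.0%) were lower with panobinostat at an adjusted p below 0.05, against 19.0% of all tested genes, and together the 8 summed to 980 to 1000 CPM in panobinostat and 1430 to 1530 CPM in untreated libraries. Marker genes of other cell types were measured as well. Of 9 erythroid markers 8 were in the table, summing to 6340 to 6740 CPM in panobinostat and 6740 to 8010 CPM in untreated libraries. Of 9 myeloid markers 8 summed to 1020 to 1120 CPM in panobinostat and 1250 to 1420 CPM in untreated libraries, and 4 of 5 B cell markers summed to 37.1 to 37.7 CPM in panobinostat and 45.4 to 53.2 CPM in untreated libraries. The myeloid marker Adgre1 rested on only about 4 to 12 reads per panobinostat library and 4 to 11 per untreated library. Ahsp, Cd14 and Pax5 had no row, and in bulk RNA fewer cells of a type and less RNA per cell cannot be told apart.

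Among the 9 genes, Iscu, Isca2, Isca1, Glrx5 and Fth1 rose with panobinostat, Iba57 and Ftl1 fell, and Nfs1 and Tfrc did not pass the threshold. A gene is said to rise or fall where its Benjamini-Hochberg adjusted p was below 0.05 in a limma fit to all 12554 tested genes. That is 5 rises and 2 falls, or 77.8% of the members. Among all tested genes 38.3% passed, 19.2% upwards and 19.0% downwards, and since the members were chosen with this contrast known nothing is read from the difference. Below an adjusted p of 0.01 stood 4 rises (Iscu, Isca1, Isca2 and Fth1) and 1 fall (Iba57), where 20.0% of all tested genes passed, 9.88% upwards and 10.1% downwards. In 8 of the 9 the 3 panobinostat and 3 untreated libraries did not overlap, 6 with panobinostat higher and 2 with it lower, as in 51.4% of all tested genes (25.7% higher and 25.7% lower). Their median log2 fold change was 0.34, against -0.00524 for all tested genes.

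**Figure D1:**
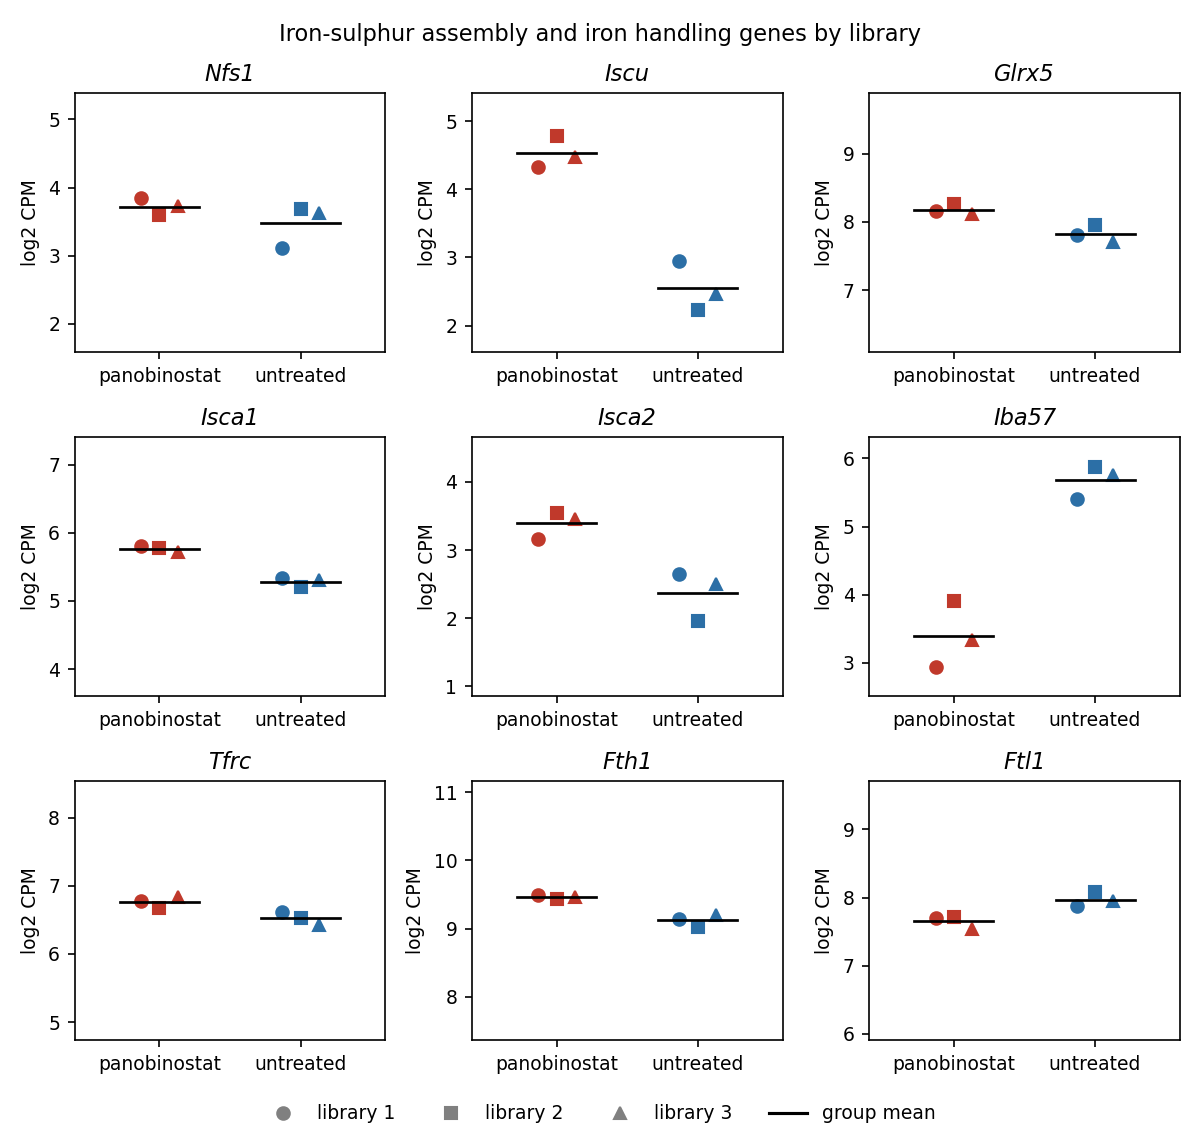
Log2 CPM of the 9 genes in each library, panobinostat left and untreated right, with the group mean as a line and the same axis span in every panel. Iba57 lies lower in all panobinostat libraries (2.94 to 3.91, against 5.40 to 5.88 in untreated libraries), Iscu lies higher (4.33 to 4.78 against 2.23 to 2.95), and only the Nfs1 groups overlap.

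At the first steps of assembly, the scaffold gene Iscu rose and the sulphur donor gene Nfs1 did not pass. Nfs1 (chromosome 2, 156123639 to 156144186, minus strand) measured, in the order of library numbers used throughout, 3.84, 3.59 and 3.73 log2 CPM with panobinostat and 3.12, 3.68 and 3.62 in untreated libraries. The groups overlapped, and untreated library 1 alone was low. Its log2 fold change of 0.25 (95% interval -0.18 to 0.67) did not pass. The 3′ end of Nfs1 lies within the gene model Gm28036 on the same strand, so reads could be split between them, and Gm28036 stood at 4.37 ± 0.16 log2 CPM in panobinostat and 4.22 ± 0.06 in untreated libraries (SD, n = 3).

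Iscu (chromosome 5, 113772748 to 113778288, plus strand), the scaffold gene, measured 4.33, 4.78 and 4.48 log2 CPM in panobinostat libraries and 2.95, 2.23 and 2.47 in untreated libraries. Every panobinostat library was above every untreated one, by a gap of at least 1.37. The log2 fold change was 1.97 ± 0.22 (SE), a 3.93-fold rise, and ranked 92 from the highest of all tested genes. The values rested on about 121 to 186 reads per panobinostat library and 32 to 60 reads per untreated library. Within a library, the log2 ratio of Iscu to Nfs1 was 0.80 ± 0.36 with panobinostat and -0.92 ± 0.67 without (SD, n = 3). These ratios restate the values above, are compared only between libraries and are not read as relative amounts of the mRNAs.

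Glrx5 (chromosome 12, 105032688 to 105042906, plus strand), which hands the finished cluster on, measured 8.16, 8.26 and 8.12 log2 CPM in panobinostat libraries and 7.81, 7.96 and 7.71 in untreated libraries. The groups lay close together without overlapping, 0.16 apart at the nearest. Its rise was small, with a log2 fold change of 0.35 ± 0.09 (SE), or 1.28-fold. It no longer passed without panobinostat library 2 (0.31) or untreated library 3 (0.29).

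The late-acting trio split, with Iba57 falling and its protein partners Isca1 and Isca2 rising. Iba57 (chromosome 11, 59155369 to 59163739, minus strand), a folate-binding protein of the late pathway, measured 2.94, 3.91 and 3.34 log2 CPM in panobinostat libraries and 5.40, 5.88 and 5.76 in untreated libraries. All panobinostat libraries were lower, by at least 1.49, and they varied more among themselves than the untreated ones did, with an SD of 0.48 against 0.25. The log2 fold change of -2.28 ± 0.24 (SE) made it 4.87-fold lower with panobinostat and ranked 30 from the lowest of 12554 genes. Reads numbered about 46 to 102 per panobinostat library and 326 to 397 per untreated library.

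Isca1 (chromosome 13, 59755409 to 59769810, minus strand) measured 5.80, 5.78 and 5.71 log2 CPM in panobinostat libraries and 5.34, 5.20 and 5.30 in untreated libraries. Libraries of a group lay within a narrow band and the bands did not overlap. The log2 fold change was 0.49 ± 0.09 (SE), or 1.40-fold. Isca2 (chromosome 12, 84773251 to 84775088, plus strand) measured 3.17, 3.55 and 3.46 log2 CPM in panobinostat libraries and 2.65, 1.96 and 2.50 in untreated libraries. Here untreated library 2 was the lowest, and the groups stayed apart. Its log2 fold change of 1.03 ± 0.22 (SE), or 2.04-fold, rested on about 54 to 83 reads per panobinostat library and 26 to 49 per untreated library.

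Ratios taken within a library do not depend on a shift of the whole library. The log2 ratio of Iba57 to Isca1 was -2.86, -1.88 and -2.37 in panobinostat libraries and 0.06, 0.68 and 0.46 in untreated libraries. That of Iba57 to Isca2 was -0.23, 0.35 and -0.12 in panobinostat libraries and 2.75, 3.92 and 3.27 in untreated libraries. In each case all panobinostat libraries were below all untreated ones, and the group means differed by -2.77 and -3.31 on the log2 scale. That separation follows from the values above, since Iba57 was lower and Isca1 and Isca2 higher in every panobinostat library. It restates their changes and is not separate evidence.

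**Figure D2:**
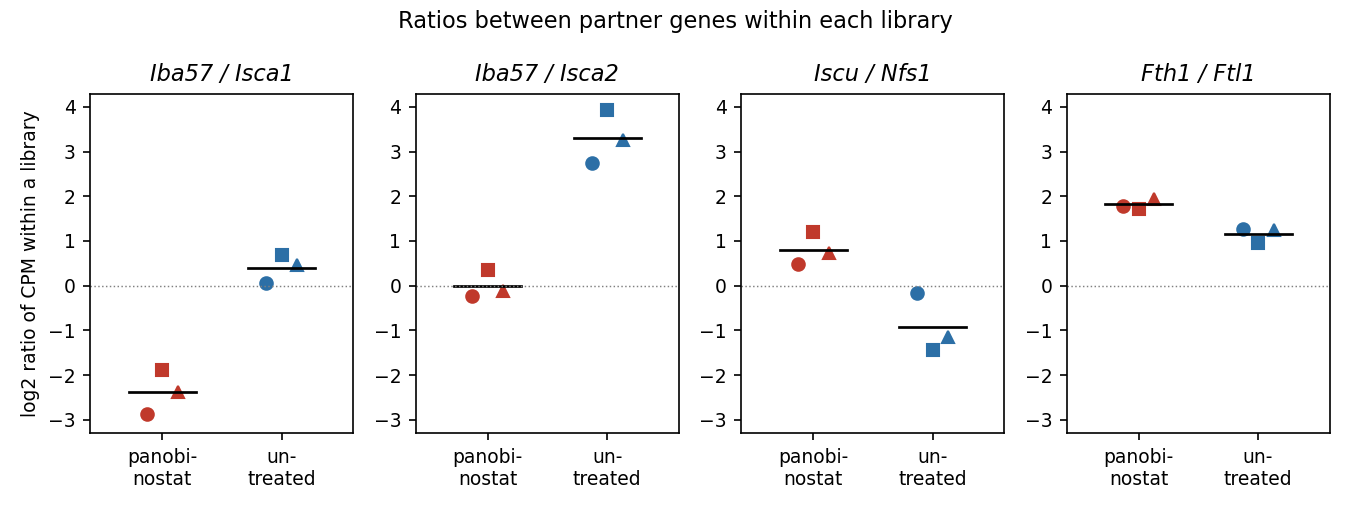
Log2 ratio of CPM between partner genes in each library, panobinostat left and untreated right, with marker shapes for library numbers 1 to 3 and a line at the group mean. Both Iba57 ratios are lower with panobinostat (means -2.37 and 0.00, against 0.40 and 3.31 in untreated libraries), and Iscu / Nfs1 and Fth1 / Ftl1 are higher (0.80 and 1.82, against -0.92 and 1.15).

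Among the iron handling genes, Fth1 rose, Ftl1 fell and Tfrc did not pass. Tfrc (chromosome 16, 32608920 to 32632794, plus strand) measured 6.77, 6.67 and 6.84 log2 CPM in panobinostat libraries and 6.61, 6.53 and 6.43 in untreated libraries. The groups were only 0.06 apart at the nearest. Its log2 fold change of 0.24 (95% interval for this gene alone 0.04 to 0.43) did not pass over all genes, and it passed without untreated library 1 (0.28).

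Fth1 (chromosome 19, 9980598 to 9985098, plus strand), the subunit that oxidizes iron for storage, measured 9.50, 9.43 and 9.47 log2 CPM in panobinostat libraries and 9.14, 9.03 and 9.20 in untreated libraries. The panobinostat libraries agreed within 0.04 (SD) and all lay above the untreated ones. The rise was 0.34 ± 0.07 (SE) on the log2 scale, or 1.27-fold. Ftl1 (chromosome 7, 45457944 to 45459884, minus strand), the light subunit that helps to form the mineral core, measured 7.70, 7.71 and 7.54 log2 CPM in panobinostat libraries and 7.88, 8.08 and 7.95 in untreated libraries. All panobinostat libraries were lower, and the log2 fold change was -0.32 ± 0.08 (SE). The fall did not pass without panobinostat library 3 (-0.26), untreated library 2 (-0.26) or untreated library 3 (-0.33), nor when the spread was modelled without a trend on level (-0.32, adjusted p = 0.063).

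The log2 ratio of Fth1 to Ftl1 was 1.79, 1.72 and 1.94 in panobinostat libraries and 1.26, 0.95 and 1.25 in untreated libraries. The means differed by 0.66. The groups could not overlap, since Fth1 was higher and Ftl1 lower in every panobinostat library, so the ratio is no separate evidence for the Ftl1 fall. Ferritin genes have processed copies elsewhere in the genome, so the split of reads between copies is uncertain. Of the annotated copies named after them, Ftl2-ps (2.69 to 3.04 log2 CPM in panobinostat and -0.17 to 2.65 in untreated libraries) and Ftl1-ps2 had rows. The miRNA gene model Gm22133 lies within Ftl1 on the same strand, so reads could be split there too, and it stood at 5.06 ± 0.18 log2 CPM in panobinostat and 4.48 ± 0.41 in untreated libraries (SD, n = 3), a log2 fold change of 0.58 that did not pass (adjusted p = 0.0594).

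Among the untreated libraries, number 2 lay farthest from the panobinostat mean for 6 of the 9 genes (66.7%), and for 47.7% of all 4806 genes that passed. Number 1 lay nearest for 6 of the 9, and for 56.3% of all that passed.

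Several members start close to another gene on the opposite strand, and those neighbours were read for comparison. Isca2 starts 99 bases from Npc2, which encodes a cholesterol-binding protein of the lysosome. Npc2 measured 9.18, 9.08 and 9.17 log2 CPM in panobinostat libraries and 8.79, 8.93 and 9.07 in untreated libraries. Its log2 fold change of 0.21 ± 0.09 (SE) did not pass (adjusted p = 0.0837), and it passed without untreated library 3 (0.28). Iscu starts 238 bases from Sart3, a gene of spliceosome recycling, whose log2 fold change was 0.22 ± 0.12 (SE, adjusted p = 0.183) beside the 1.97 of Iscu. The start of Nfs1 overlaps that of Romo1, a small mitochondrial membrane protein gene, by 147 bases. Romo1 fell by this test (log2 fold change -0.28 ± 0.09 SE, adjusted p = 0.0361), but not once any single library other than untreated library 1 was left out (-0.36 to -0.23 over the 6 fits) nor with replicate number as a block (adjusted p = 0.0536). Within libraries, the log2 ratio of Isca2 to Npc2 was higher with panobinostat by 0.81 and that of Iscu to Sart3 by 1.75, as differences of group means. Both restate the fold changes of these genes and are not separate evidence. Iba57, Tfrc and Fth1 had no annotated start on the other strand within 1000 bases.

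**Figure D3:**
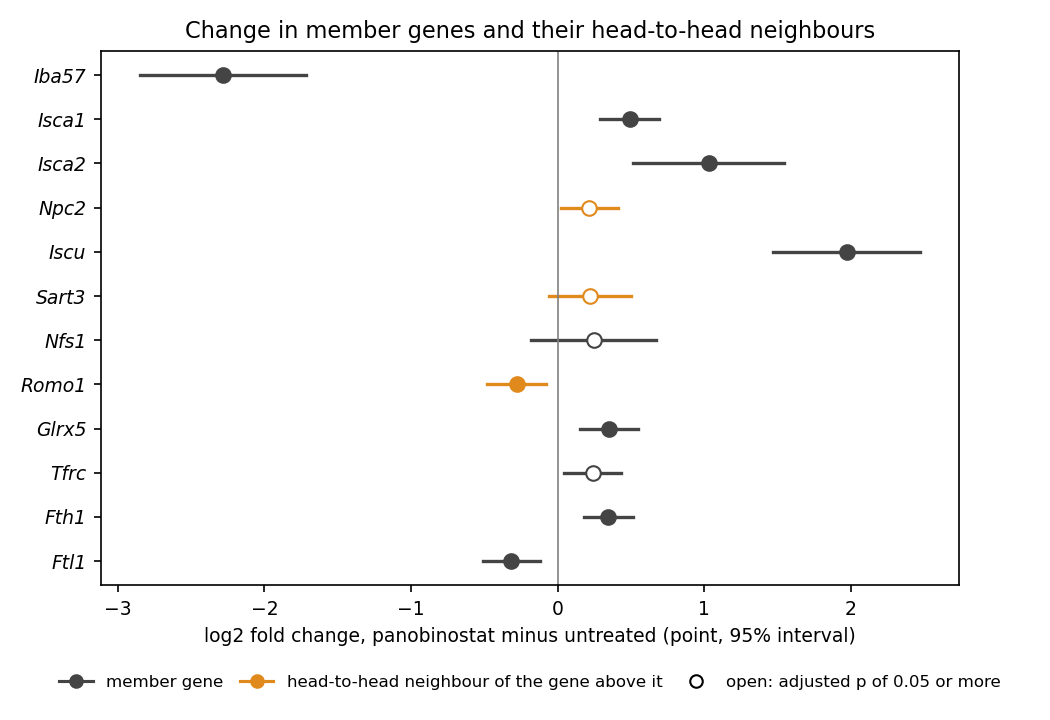
Log2 fold change (panobinostat minus untreated) with its 95% interval for the 9 members, in grey, and for the head-to-head neighbours with a row, in orange below their member. Filled points passed the adjusted threshold of 0.05. Iscu at 1.97 and Isca2 at 1.03 lie to the right of their neighbours Sart3 (0.22) and Npc2 (0.21).

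The wider pathway was read from 7 gene lists with 94 tested genes, of which 18 rose and 22 fell (42.6%, against 38.3% of all genes). Other genes of mitochondrial cluster assembly went both ways: 2 rose and 5 fell of 16 tested (43.8%), with a median log2 fold change of -0.04. Bola1, a partner of Glrx5, fell most (log2 fold change -1.26 ± 0.11 SE, adjusted p = 0.000386), followed by the sulphydryl oxidase gene Gfer (-1.16 ± 0.17, adjusted p = 0.00191). The electron donor gene Fdx1l, which encodes ferredoxin 2, fell as well (-0.60 ± 0.15, adjusted p = 0.0151), though not without panobinostat library 3 (-0.52).

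Of the chaperone genes of the transfer step, Hspa9, the mitochondrial Hsp70 that takes clusters off the scaffold, rose (0.56 ± 0.11 SE, adjusted p = 0.00594), and so did Grpel1, its nucleotide exchange factor (0.64 ± 0.09, adjusted p = 0.00162). Their co-chaperone gene Hscb had a log2 fold change of 0.55 ± 0.20 (adjusted p = 0.0578), which passed when untreated library 1 was left out (0.68). The desulphurase partner gene Lyrm4 (-0.03 ± 0.17, adjusted p = 0.895) and the targeting factor genes Nfu1 (0.15 ± 0.12, adjusted p = 0.348) and Bola3 (-0.05 ± 0.08, adjusted p = 0.639) did not pass.

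In the cytosolic assembly list 5 rose and 2 fell of 11 tested, with a median of 0.05. That is 63.6%, beside 38.3% of all tested genes (19.2% upwards and 19.0% downwards). The list was chosen with results of these data known, so nothing is read from the difference. The scaffold genes Nubp1 and Nubp2 moved apart: Nubp1 fell (-0.87 ± 0.15 SE, adjusted p = 0.00364) and Nubp2 rose (0.68 ± 0.15, adjusted p = 0.0108). Ciao1, a subunit of the complex that delivers clusters to target proteins, rose (0.97 ± 0.15, adjusted p = 0.00257), as did its partner gene Fam96b (0.91 ± 0.22, adjusted p = 0.0153). Ndor1, which feeds electrons to the pathway, rose by 0.95 ± 0.16 (adjusted p = 0.00355), and Bola2, a partner of the cytosolic glutaredoxin Glrx3, by 0.60 ± 0.10 (adjusted p = 0.00285).

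Genes for the proteins that receive clusters were mixed. Of 15 mitochondrial ones 3 rose and 5 fell (53.3%, beside 38.3% of all tested genes), with a median of -0.13. Uqcrfs1, the Rieske subunit of complex III (0.79 ± 0.14 SE, adjusted p = 0.00485), and Etfdh, which passes electrons to ubiquinone (0.96 ± 0.24, adjusted p = 0.0169), rose. The complex I subunit genes Ndufs8 (-0.66 ± 0.15, adjusted p = 0.0114) and Ndufs7 (-0.45 ± 0.11, adjusted p = 0.015) and the ferrochelatase gene Fech (-0.46 ± 0.13, adjusted p = 0.025) fell. The list's count of 8 dropped to 4 without panobinostat library 2 or 3 or untreated library 3. Calls lost in some of these fits were Etfdh (without panobinostat library 2, 0.91, or 3, 0.95), Ndufs7 (without panobinostat library 2, -0.42, or 3, -0.44, or untreated library 3, -0.44) and Fech (without the same libraries, -0.42, -0.43 and -0.37). Fech also did not pass with replicate number as a block (adjusted p = 0.0557).

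Of 20 nuclear and cytosolic iron-sulphur protein genes 2 rose and 4 fell (30.0%, beside 38.3% of all tested genes), with a median of -0.06. Ppat, the first enzyme of purine synthesis (0.88 ± 0.10 SE, adjusted p = 0.000745), and the repair helicase gene Ercc2 (0.76 ± 0.11, adjusted p = 0.00207) rose. The DNA polymerase delta gene Pold1 (-0.54 ± 0.09, adjusted p = 0.00339) and the helicase genes Brip1 (-0.44 ± 0.09, adjusted p = 0.00635) and Rtel1 (-0.49 ± 0.12, adjusted p = 0.014) fell, and Rtel1 did not pass without untreated library 3 (-0.47). Rsad1, at the low levels of 1.85 ± 0.11 log2 CPM in panobinostat and 2.58 ± 0.27 in untreated libraries (SD, n = 3), fell too (-0.72 ± 0.21, adjusted p = 0.0304). It did not pass when any panobinostat library or untreated library 3 was left out (-0.83 to -0.57 over the 6 fits), nor with the replicate block (adjusted p = 0.0577).

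**Figure D4:**
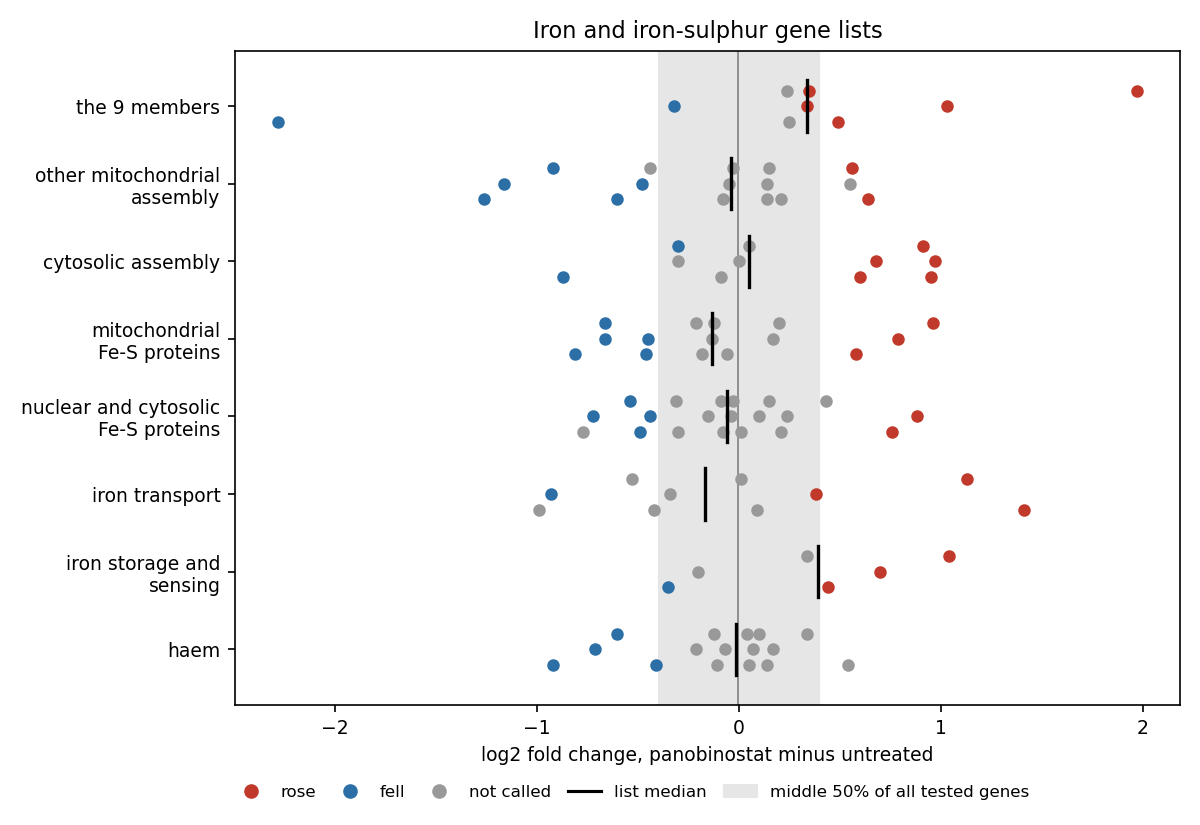
Log2 fold change (panobinostat minus untreated) of each tested gene in the 9 members and the 7 pathway lists. Red points rose, blue points fell, grey points did not pass, black bars are list medians and the shaded band holds the middle 50% of all tested genes. The list medians run from -0.16 to 0.39, and every pathway list except haem has genes that rose and genes that fell.

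Genes of iron transport included 3 rises and 1 fall of 10 tested (40.0%, beside 38.3% of all tested genes), with a median of -0.16. Slc39a14, a transporter of zinc and of iron not bound to transferrin, rose most (1.41 ± 0.23 SE, adjusted p = 0.00332) from low levels, at 3.04 ± 0.22 log2 CPM in panobinostat and 1.63 ± 0.32 in untreated libraries (SD, n = 3). Slc25a28, or mitoferrin 2, which carries iron into mitochondria, rose by 1.13 ± 0.27 (adjusted p = 0.0137), and Slc11a2, or DMT1, which releases iron from endosomes, by 0.38 ± 0.08 (adjusted p = 0.00792). The mitochondrial transporter gene Abcb8 fell (-0.93 ± 0.26, adjusted p = 0.0253), which did not pass when number 1 or 2 of the panobinostat or number 2 or 3 of the untreated libraries was left out (-1.17 to -0.67 over the 6 fits). Slc40a1, or ferroportin, the iron exporter, stood at -0.53 ± 0.18 (adjusted p = 0.0524) and passed without panobinostat library 3 (-0.66).

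Of 6 tested genes of iron storage and sensing 3 rose and 1 fell, with a median of 0.39. That is 66.7%, beside 38.3% of all tested genes, and again nothing is read from the difference. Ncoa4, the receptor that takes ferritin to lysosomes for breakdown, rose (0.70 ± 0.12 SE, adjusted p = 0.004). Aco1, whose protein becomes iron regulatory protein 1 when it lacks its cluster, rose as well (1.04 ± 0.21, adjusted p = 0.00676), at 4.12 ± 0.10 log2 CPM in panobinostat and 3.08 ± 0.39 in untreated libraries (SD, n = 3). The gene of the other iron regulatory protein, Ireb2, stood at -0.20 ± 0.11 (adjusted p = 0.168). Fbxl5, the ligase subunit that marks it for degradation, had a log2 fold change of 0.34 ± 0.17 (adjusted p = 0.156), which passed when untreated library 1 was left out (0.50). The iron chaperone genes split, Pcbp2 rising (0.44 ± 0.11, adjusted p = 0.0155) and Pcbp1 falling (-0.35 ± 0.11, adjusted p = 0.0392). Pcbp2 did not pass without panobinostat library 2 or 3 or untreated library 3 (0.37 to 0.55 over the 6 fits), nor Pcbp1 without panobinostat library 1 or 3 or untreated library 2 or 3 (-0.43 to -0.25), and the list's count of 4 dropped to 2 without panobinostat library 3 or untreated library 3.

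The haem list had 0 rises and 4 falls of 16 tested (25.0%), with a median of -0.01, beside 38.3% of all tested genes called and 19.0% that fell. Bach1, a haem-binding repressor of Hmox1 and the ferritin genes, fell (-0.71 ± 0.10 SE, adjusted p = 0.00188). Hmox1, which opens the haem ring and frees its iron, fell too (-0.92 ± 0.21, adjusted p = 0.0113), as did Blvra, the next enzyme in haem breakdown (-0.60 ± 0.14, adjusted p = 0.0122). Alas2, the erythroid form of the first enzyme of haem synthesis, fell (-0.41 ± 0.12, adjusted p = 0.0333), but not when library 2 or 3 of either group was left out (-0.51 to -0.34 over the 6 fits) nor with the replicate block (adjusted p = 0.0703). Of the 8 erythroid markers 4 fell and 1 rose (62.5%), with a median of -0.34, and of the 8 myeloid markers 3 fell and 0 rose (37.5%), with a median of -0.50, beside 38.3% called among all tested genes. The part of these other cells in the iron genes was not tested.

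Hairpins of the kind shown for ferritin were also matched in the 5′ ends of Slc40a1 (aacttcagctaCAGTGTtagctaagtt, chromosome 1) and Alas2 (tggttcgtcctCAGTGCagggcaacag, chromosome X), and in the 3′ end of a Bola3 transcript. Among the 4 genes described with a 5′ match, Fth1 (0.34) rose, Ftl1 (-0.32) and Alas2 (-0.41) fell, and Slc40a1 (-0.53) did not pass. This group was put together after the values were seen.

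By the distance between their values, the genes most like Iba57 were Parp11, Ptpro, Mlst8, Ubxn8 and Ramp3. The values were not scaled, so a fall of similar size weighs in this likeness as well as its shape. Likeness was the Euclidean distance between the 6 log2 values of 2 genes, each centred on its own mean, over the 6276 genes whose mean log2 CPM was no lower than 4.16, the median. The distances were 0.589 for Parp11, 0.599 for Ptpro, 0.644 for Mlst8, 0.665 for Ubxn8 and 0.701 for Ramp3. Parp11, Ptpro and Mlst8 had the panobinostat libraries in the same order as Iba57, and Ubxn8 and Ramp3 did not. Libraries 2 and 3 were nearly level in Ptpro (3.46 and 3.44) and Mlst8 (3.82 and 3.80). The 5 genes were picked on these same values, and the share of all genes with this order was not counted, so nothing is read from it. Parp11 stood at 3.24, 4.22 and 3.91 log2 CPM, against 5.49, 5.78 and 5.67 in untreated libraries. The log2 fold changes of the 5 ran from -2.59 (Mlst8) to -1.85 (Parp11).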

How the data were processed

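The study measured mRNA in 3 panobinostat and 3 untreated libraries, grouped by the treatment in the labels. The submitters' processing notes name HISAT2 2.1.0, cutadapt 1.9, limma, Subread 1.5.0 with its featureCounts, and the mm10 build. Annotation and strand setting are not given in the sources used here. Values per gene and library were deposited by the authors on a log2 scale. That they are log2 CPM, quantile normalized, was inferred: powers of 2 summed to between 994114 and 994182 per library, and in 87.6% of ranks all libraries lay within 0.05 of their mean.

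Library numbers came from the column names. The sample titles give every library the same number, so the titles themselves do not tell replicates apart by number. Rows with a mean log2 of at least 0 were tested (631 were left out) with limma 3.58.1 (eBayes with trend) under R 4.3.3, without a pseudocount, with Benjamini-Hochberg adjustment over 12554 genes and a threshold of 0.05. The fit was checked on simulated data. Positions, transcripts and neighbours came from the GENCODE M21 release on the same build and promoter windows from RefSeq. Summaries used pandas 2.3.3 under Python 3.11.15, and figures matplotlib 3.10.9. Depth was taken from the first 200 steps between distinct values, 1 step as 1 read; without molecular identifiers, a read is not an independent molecule.

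The members and lists were chosen with earlier results of these data known. The rule for named genes took all members, up to 6 called genes of each list by adjusted p, smallest first, a fixed set of assembly and iron genes, head-to-head neighbours within 1000 bases and the 5 genes most like Iba57. Some genes the rule took are counted in their lists but not reported here. Alternatives were other filters, scalings, spread models and thresholds, array weights, a pseudocount of 1, a replicate block and each library left out.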

Additional observations from a re-analysis of the deposited data

How the results depend on the processing

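Over 17 results (the 9 genes, the 7 list counts and the count over all genes) and 16 alternatives each, 251 of 272 were scored as kept. Of the rest, 19 no longer passed or were smaller counts, 2 newly passed and 0 reversed. A gene was kept where its direction and side of the threshold stayed the same. A count has neither and could not reverse. It was kept unless it changed by more than a set factor, so that 3295 against 4806 genes still scored as kept. At a threshold of 0.01 the count over all genes was 2513, Glrx5 (0.35) and Ftl1 (-0.32) did not pass, and the counts were 4 for cytosolic assembly, 1 for mitochondrial iron-sulphur proteins, 2 for iron transport, 2 for iron storage and sensing and 1 for haem; fewer calls follow from the threshold. Array weights let Tfrc pass (0.29), and without a trend in the spread Ftl1 (-0.32), Pcbp1, Alas2 and Romo1 did not pass. With each library left out, the count over all genes ran from 3295 to 5226, Glrx5 from 0.29 to 0.42, Tfrc from 0.19 to 0.28, Ftl1 from -0.36 to -0.26, mitochondrial iron-sulphur proteins from 4 to 9 and iron storage and sensing from 2 to 5; fits with 5 libraries hold fewer samples, and otherwise the cause was not tested. Among uncalled genes near 0, Lyrm4 changed sign without panobinostat library 3 (0.04) or untreated library 2 (0.08), and Bola3 without untreated library 2 (0.00); over all libraries left out in turn they ran from -0.17 to 0.08 and from -0.10 to 0.00. The replicate numbers gave no clear sign of pairing: deviations of same-numbered libraries correlated at -0.0444, 0.104 and -0.0108, and not every library correlated best with its own number. So few libraries cannot show that they were unpaired. The numbers stand only in the column names, since the sample titles give every library the same number. With the replicate number as a block 4148 genes passed, 2079 upwards and 2069 downwards, no member changed its call, and of the other named genes Fech, Rsad1, Alas2 and Romo1 lost theirs. Among the 9 genes, Isca2 and Iscu had the fewest estimated reads, 26 to 60 in untreated libraries, and Slc39a14, with 18 to 26, had fewer.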
